A study of Homo sapiens with 4 samples.

Results

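The genes described here are 46 human genes that copy DNA in S phase: the factors that license replication origins, the helicase and its activators, the sliding clamp and its loader, the replicative polymerases, the enzymes of the lagging strand, the enzymes that supply deoxynucleotides, the factors that rebuild chromatin behind the fork, and the transcription factor E2F1. They were chosen by symbol from the annotation of the array's probe sets, and each is represented by the brightest probe set that names it alone. All 46 had such a probe set, out of 19775 genes that did, and 45 of them were bright enough to be tested, out of 12960. RNA came from MCF10A, an established mammary epithelial line that is not tumorigenic. The cells were kept in DFCI-1 medium under normal growth conditions. The control group (n = 2 arrays) expressed a control short hairpin RNA, and the other group (n = 2 arrays) hairpins directed at Cbl and Cbl-b, ubiquitin ligases that tag activated receptor tyrosine kinases. The samples were prepared in duplicate, and the labels state neither whether the cells were a clone or a pool nor whether the duplicates were separate cultures. The p-values therefore measure only how far duplicate arrays differ, and that spread may be technical.

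Replication is prepared in G1, when the origin recognition complex (ORC), CDC6 and CDT1 load the MCM helicase onto DNA as an inactive ring, a step called licensing. In S phase CDC45 and the GINS complex switch the helicase on, and the clamp PCNA, placed by the clamp loader RFC, holds the polymerases on the template. Many of these genes are transcribed under the control of E2F factors as cells leave G1, and dividing epithelial cells in culture express them at a higher level than resting ones.

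Before the replication genes, the labels were checked. CBL read 125.9 and 84.4 on the control arrays and 31.1 and 29.0 on the arrays labelled double knockdown, and fell by 1.37 on the log2 scale (SE 0.15, limma adjusted p = 0.00139). That is its brightest probe set. The other two above the brightness minimum changed by -0.33 (unadjusted p = 0.0314) and -0.20 (0.0544), and with the mean of its probe sets CBL changed by -0.41 (adjusted p = 0.0159). CBLB read 64.3 and 70.05 in the control and 94.8 and 99.5 on the labelled arrays, a log2 change of 0.45 (SE 0.09, adjusted p = 0.0148), which goes against the label, so these arrays are described as labelled double knockdown throughout. The call of CBLB was lost without either labelled array (adjusted p up to 0.14), while its second probe set changed by 0.40 (unadjusted p = 0.0426). Of the 10 markers of mammary epithelium listed, 8 had a probe set and all 8 were above the brightness minimum, with summed intensities of 40896 to 41036 in the control and 27793 to 27985 on the labelled arrays. The 8 did not move one way: the basal keratins KRT14 (log2 change -1.62, limma adjusted p = 6.36e-05) and KRT5 (-0.73, 0.0017) fell, the luminal keratins KRT8 (0.65, 0.0045) and KRT18 (0.53, 0.00997) and the adhesion molecule EPCAM (0.40, 0.0272) rose, and CDH1, ITGB4 and SFN were not called. Of the listed leukocyte markers 2 of 4 with a probe set were above the minimum, of the endothelial ones 1 of 4 and of the fibroblast ones 3 of 6. Those above it were CD3E and ITGAM, then PECAM1, then COL1A1, COL1A2 and DCN. Those below it were PTPRC and LYZ, then CDH5, VWF and KDR, then COL3A1, LUM and PDGFRB. The leukocyte sum was 49.3 to 53.2 in the control and 49.3 to 53.1 on the labelled arrays, the endothelial sum 56.1 to 57.0 and 49.3 to 52.3, and the fibroblast sum 311 to 318 and 239.3 to 239.5. DCN, a fibroblast matrix gene, fell (log2 change -0.81, limma adjusted p = 0.00707), and no other marker of these 3 lists was called. The part of these shifts in the results was not tested.

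A larger share of the set, which was chosen with earlier results of these data known, than of all genes was lower. Of the 45 genes tested 20 fell and 3 rose at an adjusted p under 0.05, against 6.60% of all genes tested that fell and 9.41% that rose. The median log2 change was -0.31 for the 45 genes and -0.01 for all genes tested, and 37 of the 45 had a negative change. In 28 genes both labelled arrays lay below both control arrays, which was so for 29.4% of all genes tested, and in 6 both lay above, against 28.1% of all genes. The 20 genes that fell spanned log2 changes from -1.47 for MCM6 to -0.31 for GINS3, and the 3 that rose were CDC6, RRM2 and RFC1. Log2 changes and folds were computed after 16 was added to every intensity, which makes the change of a dim gene look smaller. In RNA of whole cultures, fewer cells that express a gene and less RNA per cell cannot be told apart.

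**Figure D1:**
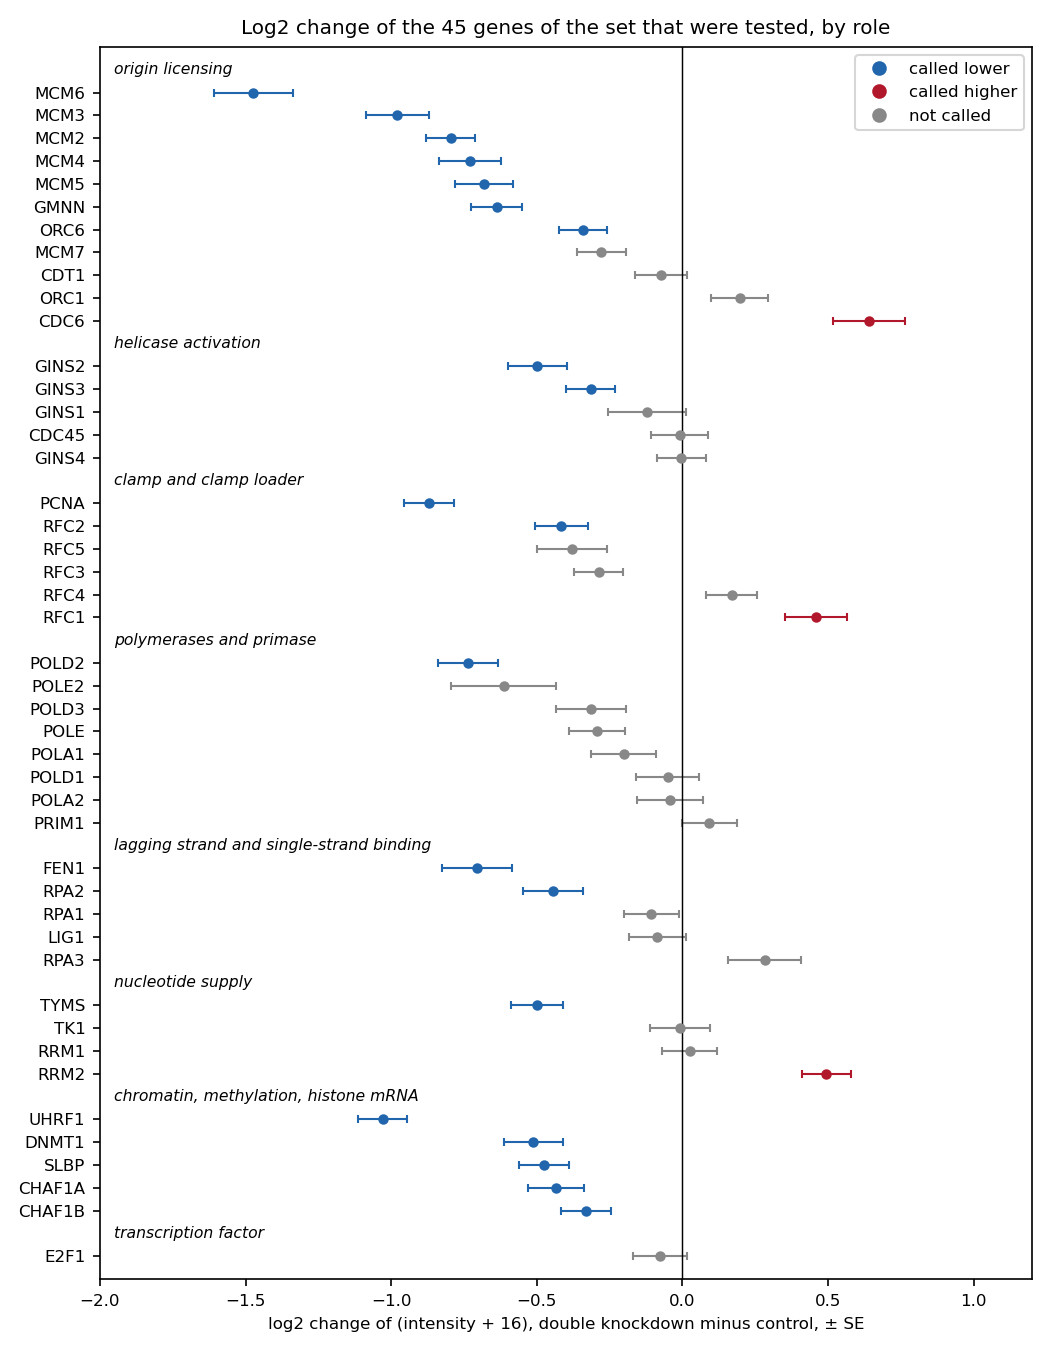
Log2 change of intensity + 16 (labelled double knockdown minus control, x axis) of the 45 genes tested, grouped by role, with the standard error as a bar and the call by colour (n = 2 arrays a group). Most points lie left of 0, from MCM6 at -1.47, while CDC6 at 0.64, RRM2 at 0.49 and RFC1 at 0.46 lie to the right.

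The promoters of the 3 genes with the largest falls and of the 3 that rose are shown, chosen by log2 change. Each sequence is the 250 bases before the gene's start in RefSeq (GRCh38.p14), written 5′ to 3′ on the strand of the gene. Capitals mark 2 searched elements on either strand: the E2F site, any of TTTCCCGC, TTTCGCGC, TTTGCCGC or TTTGGCGC, and the CCAAT box, CCAAT, which reads ATTGG on the other strand. MCM6 is at chr2:135876444-135876693, minus strand, UHRF1 at chr19:4909251-4909500, plus strand, and MCM3 at chr6:52284743-52284992, minus strand. CDC6 is at chr17:40287629-40287878, plus strand, RRM2 at chr2:10122489-10122738, plus strand, and RFC1 at chr4:39366363-39366612, minus strand.
MCM6: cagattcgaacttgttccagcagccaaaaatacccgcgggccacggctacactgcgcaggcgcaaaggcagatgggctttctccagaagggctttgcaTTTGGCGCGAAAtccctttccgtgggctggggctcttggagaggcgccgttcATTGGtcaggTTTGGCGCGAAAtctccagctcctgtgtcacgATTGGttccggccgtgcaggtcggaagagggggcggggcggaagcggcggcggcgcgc
UHRF1: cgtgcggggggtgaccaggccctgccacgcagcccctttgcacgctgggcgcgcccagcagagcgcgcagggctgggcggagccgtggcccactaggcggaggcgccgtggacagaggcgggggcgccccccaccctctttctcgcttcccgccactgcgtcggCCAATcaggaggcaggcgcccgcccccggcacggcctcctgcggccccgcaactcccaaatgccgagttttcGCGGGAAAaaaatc
MCM3: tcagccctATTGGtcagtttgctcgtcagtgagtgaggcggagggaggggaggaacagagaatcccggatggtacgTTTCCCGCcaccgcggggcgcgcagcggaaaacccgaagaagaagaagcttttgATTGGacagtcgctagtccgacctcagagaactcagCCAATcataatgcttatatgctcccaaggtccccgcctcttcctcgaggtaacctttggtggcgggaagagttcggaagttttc
CDC6: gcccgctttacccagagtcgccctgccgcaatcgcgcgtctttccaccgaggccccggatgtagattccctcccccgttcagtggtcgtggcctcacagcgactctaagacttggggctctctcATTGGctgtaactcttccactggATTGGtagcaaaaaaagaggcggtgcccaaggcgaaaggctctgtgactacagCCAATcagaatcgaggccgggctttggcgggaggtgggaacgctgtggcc
RRM2: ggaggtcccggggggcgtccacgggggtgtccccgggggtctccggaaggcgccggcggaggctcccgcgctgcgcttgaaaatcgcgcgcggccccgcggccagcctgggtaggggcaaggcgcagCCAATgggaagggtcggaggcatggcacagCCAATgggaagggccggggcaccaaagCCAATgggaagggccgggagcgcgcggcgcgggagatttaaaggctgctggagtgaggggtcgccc
RFC1: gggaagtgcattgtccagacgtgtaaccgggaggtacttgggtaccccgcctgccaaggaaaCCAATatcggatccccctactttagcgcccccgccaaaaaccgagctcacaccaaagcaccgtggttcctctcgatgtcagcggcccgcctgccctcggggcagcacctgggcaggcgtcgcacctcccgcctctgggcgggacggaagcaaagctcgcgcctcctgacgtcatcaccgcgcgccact

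The promoter of MCM6 held 4 matches to the E2F letters, 2 overlapping pairs whose members face opposite ways and begin 152 and 148, and 90 and 86 bases before the start. UHRF1 held 1 match, 14 bases before the start, and MCM3 held 1, 174 bases before it. CDC6, RRM2 and RFC1 held no exact E2F match in this window, and 3, 3 and 1 CCAAT boxes. Forms that differ by 1 letter were not searched for in any gene. The CDC6 sequence holds such a form, TTTGGCGG, and RFC1 holds the same form on the other strand, as CCGCCAAA. RRM2 holds GCGGGAGA, 1 letter from GCGGGAAA, which is TTTCCCGC on the other strand. The lack of a match therefore does not mean that an E2F site is absent. A sequence was at hand for 40 of the 46 genes, and 14 of these (35%) held an E2F match, against 4.25% of the 10443 tested genes with a sequence. By call, 6 of 17 genes that fell held a match (35.3%), 0 of 3 that rose and 8 of 19 that were not called (42.1%). E2F1 itself held 2 matches and PCNA, GINS2 and TYMS 1 each, while MCM2, FEN1, DNMT1 and SLBP, which fell, held none. A CCAAT box was in 57.5% of the promoters of the set and in 34.6% of those of all genes tested, and the cell cycle element TTTGAA, called CHR, in 2.5% and 8.58%. No test was run on these shares, and a match is a description of the letters and not of binding.

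The MCM2 to MCM7 proteins form the ring of the replicative helicase. Of the 6 transcripts 5 fell (83.3%), against 6.60% of all genes tested, with a median log2 change of -0.76 for the 6. MCM6 read 393 and 517 on the control arrays and 142 and 163 on the labelled ones, a mean of 455 ± 87.7 (SD, n = 2) against 153 ± 15.3 (log2 change -1.47, SE 0.14, limma adjusted p = 0.000613). Its second probe set was below the brightness minimum and changed by -0.03, and with the mean of both MCM6 changed by -0.75 (adjusted p = 0.00709), less than UHRF1, MCM3, PCNA and MCM2 did. MCM3 read 224 and 275 in the control and 118 and 119 on the labelled arrays (log2 change -0.98, SE 0.11, adjusted p = 0.0014). MCM2 read 252 and 263, then 142 and 141 (log2 change -0.79, SE 0.08, adjusted p = 0.00112). The pairs of all 3 genes lay well apart, and the labelled arrays agreed more closely with each other than the control arrays did.

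MCM4 read 113 and 138 in the control and 71.7 and 66.4 on the labelled arrays (log2 change -0.73, SE 0.11, adjusted p = 0.00487), and without the second labelled array its adjusted p was 0.0537. With the mean of its probe sets MCM4 changed by -0.43 (adjusted p = 0.0199). MCM5 read 126 and 149.8, then 78.5 and 80.9 (log2 change -0.68, SE 0.10, adjusted p = 0.00506). MCM7 had the smallest change of the ring: it read 181 and 185, then 148 on both labelled arrays, a log2 change of -0.28 that missed the threshold (95% interval -0.47 to -0.09, adjusted p = 0.0593). Its groups did not overlap, and it was called with quantile normalization, a constant of 64 or no brightness filter (adjusted p from 0.0389 to 0.0469). Whether it differed from the other ring genes in its change was not tested. MCM10, which helps to open the ring, was too dim to be tested, at 12.3 and 14.9 in the control and 7.07 and 6.85 on the labelled arrays on its brightest probe set. With no brightness filter it was called lower (log2 change -0.36, limma adjusted p = 0.0453 over 19775 genes).

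The genes whose products load the ring gave mixed values. CDC6, the ATPase that recruits the helicase to ORC, rose: it read 35.7 and 50.1 in the control and 77.3 and 73.0 on the labelled arrays (log2 change 0.64, SE 0.12, limma adjusted p = 0.0135), with the pairs clear of each other. Its call was lost without either labelled array (adjusted p up to 0.0892) and with no brightness filter (0.0573). CDT1, the other loader, read 138 and 151, then 134 and 138 (log2 change -0.07, 95% interval -0.28 to 0.13), and its groups overlapped. GMNN, which encodes the CDT1 inhibitor geminin, fell from 428 and 455 to 284 and 272 (log2 change -0.64, SE 0.09, adjusted p = 0.0036), although without the second labelled array its adjusted p was 0.0511. ORC6, the smallest ORC subunit, fell from 88.6 and 87.6 to 65.9 and 66.3 (log2 change -0.34, SE 0.08, adjusted p = 0.0301) and lost its call without any one of the arrays (adjusted p up to 0.2). ORC1, the ATPase of the complex, read 17.6 and 22.3, then 23.97 and 26.3, close to the brightness minimum of 14.6, a log2 change of 0.20 that did not pass (95% interval -0.03 to 0.42). In all 7 of the 11 licensing genes fell (63.6%) and 1 rose (9.09%), against 6.60% and 9.41% of all genes tested.

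**Figure D2:**
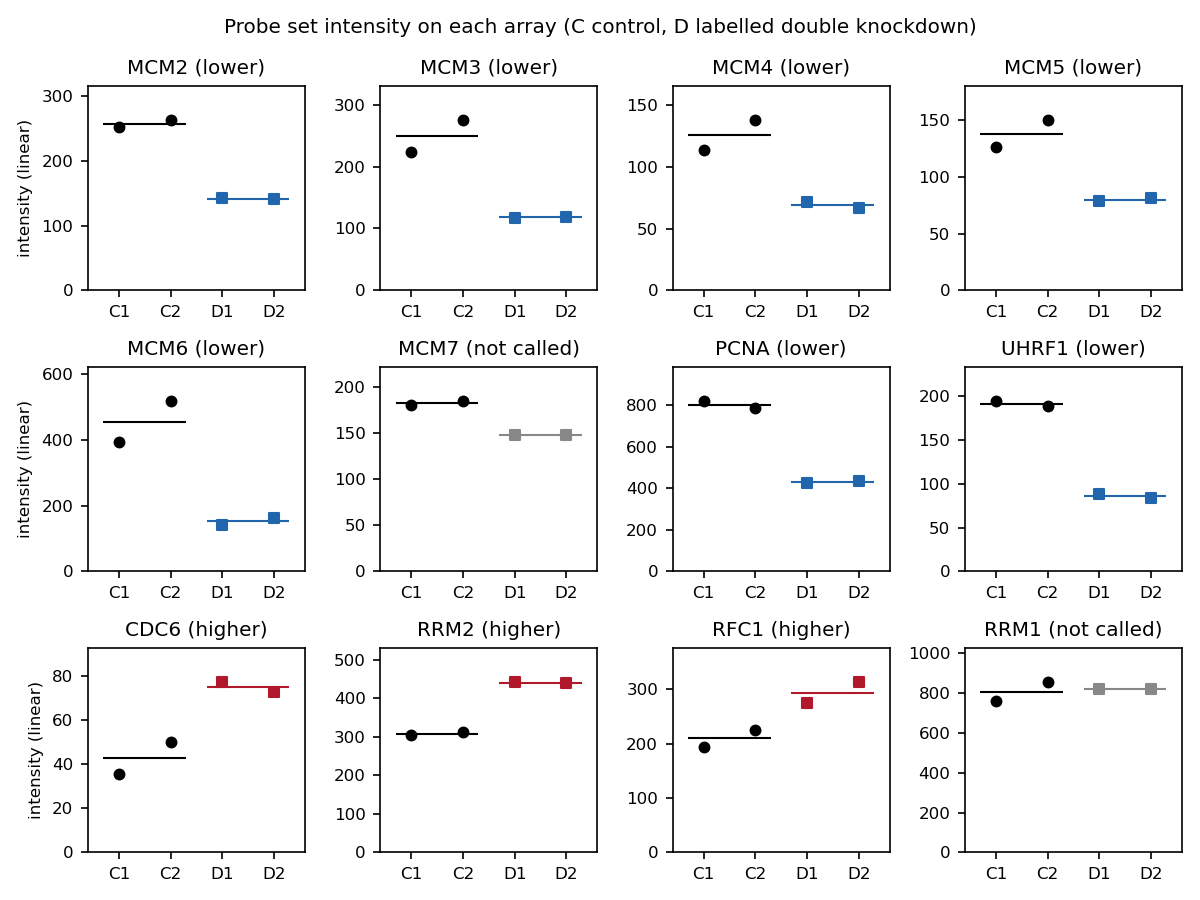
Linear probe set intensity (y axis, from 0) on each array (x axis: C1 and C2 control, D1 and D2 labelled double knockdown) for 12 genes of the set; points are arrays and lines group means. The labelled arrays lie below the control arrays for MCM2 to MCM7, PCNA and UHRF1, above them for CDC6, RRM2 and RFC1, and between them for RRM1.

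Of the genes that switch the helicase on, 2 of 5 tested fell (40%) and none rose, against 6.60% and 9.41% of all genes tested. Their median log2 change was -0.12. GINS2 fell from 79.8 and 95.9 to 57.2 and 57.5 (log2 change -0.50, SE 0.10, limma adjusted p = 0.0156), and GINS3 from 64.7 and 66.8 to 48.8 and 50.7 (log2 change -0.31, SE 0.08, adjusted p = 0.0421). The other two subunits of the GINS complex were not called. GINS1 read 81.0 and 112 in the control and 81.7 and 90.8 on the labelled arrays, and GINS4, close to the brightness minimum, 18.8 on both control arrays and 17.9 and 19.5 on the labelled ones. CDC45 read 31.8 and 38.7, then 33.8 and 35.8 (log2 change -0.01, 95% interval -0.24 to 0.22), so a change of the size seen in MCM3 lay outside its interval. The second probe set of GINS2 changed by -0.08 with an unadjusted p of 0.304, and on it the gene was not called (adjusted p = 0.628). The call of GINS2 was also lost with the mean of its probe sets (0.0875) and without either labelled array (up to 0.115). GINS3 had the highest adjusted p of the 23 calls: it was lost without any one array (adjusted p up to 0.255) and with a constant of 64 (0.0589), with trended and robust variances (0.0554) and on its second probe set (log2 change -0.27, adjusted p = 0.074).

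The clamp fell while its loader divided. PCNA read 819 and 785 on the control arrays and 426 and 437 on the labelled ones (log2 change -0.87, SE 0.08, limma adjusted p = 0.000758), a 1.83-fold fall with little spread in either pair. Of the 5 subunits of RFC, RFC2 fell from 156 and 168 to 122 and 112 (log2 change -0.42, SE 0.09, adjusted p = 0.0213), with -0.55 on a further probe set. RFC1, the large subunit, rose from 195 and 225 to 274 and 314 (log2 change 0.46, SE 0.11, adjusted p = 0.0266), with 0.52 on its second probe set. RFC3 read 134 and 139, then 111 and 107 (log2 change -0.29, adjusted p = 0.0561), and RFC5 204 and 182, then 163 and 128 (log2 change -0.38, adjusted p = 0.0711). Neither passed, although the groups of both lay apart. RFC3 was called with quantile normalization, a constant of 64 or no brightness filter (0.0445 to 0.0489), and RFC5 with the mean of its probe sets (0.025). RFC3 was not called with the mean of its probe sets (0.104) or a constant of 1 (0.0843), nor RFC5 with a constant of 1 (0.109) or 64 (0.0948). RFC4 read 241 and 223, then 264 and 261 (log2 change 0.17, adjusted p = 0.241). RFC2 and RFC1 both lost their call without either labelled array, with adjusted p up to 0.194 and 0.217, RFC2 also without control array 2 and RFC1 also without control array 1, with the mean of its probe sets (0.0694), with no brightness filter (0.0703) and with a constant of 1 (0.0519).

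Of the 8 polymerase and primase genes 1 was called. POLD2, the accessory subunit that holds polymerase delta together, fell from 399 and 335 to 214 and 212 (log2 change -0.74, SE 0.10, limma adjusted p = 0.00388). POLD1, which encodes the catalytic subunit of the same enzyme, read 70.1 and 80.1, then 78.9 and 65.3, with overlapping groups (log2 change -0.05, 95% interval -0.30 to 0.20), and POLD3 read 98.8 and 127, then 81.7 and 92.2 (log2 change -0.32, adjusted p = 0.121; 0.0408 without control array 1). POLE2, a subunit of the leading strand polymerase epsilon, had control values of 65.8 and 107 and labelled values of 54.8 and 44.8. Its log2 change of -0.61 was close to that of GMNN, but it did not pass (SE 0.18, adjusted p = 0.057). It was not called with a constant of 1 (limma adjusted p = 0.0806) or 64 (0.122). It was called with median centring, with specific probe sets and with trended and robust variances (adjusted p from 0.0421 to 0.0451). Without control array 1 POLE2 was called as well (log2 change -0.91, adjusted p = 0.00974), and without control array 2 its change was -0.32. POLE, the catalytic subunit, read 34.9 and 29.5, then 21.97 and 24.6 (log2 change -0.29, adjusted p = 0.0783). The primase and polymerase alpha genes, which start each new strand, were all uncalled: POLA1 at -0.20, POLA2 at -0.04 and PRIM1 at 0.09 on the log2 scale. POLA2 was dim, at 27.0 and 32.5 in the control and 32.3 and 24.6 on the labelled arrays.

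On the lagging strand, FEN1, the nuclease that trims the flaps between Okazaki fragments, fell from 192 and 233 to 113 and 135 (log2 change -0.71, SE 0.12, limma adjusted p = 0.00881). A further probe set gave -0.76. LIG1, the ligase that seals those fragments, read 51.6 and 43.8, then 46.3 and 41.6, and its groups overlapped (log2 change -0.09, 95% interval -0.31 to 0.14). The 3 subunits of RPA, which coats single-stranded DNA, gave different values. RPA2 fell from 290.2 and 337 to 215 and 236 (log2 change -0.45, SE 0.10, adjusted p = 0.0252), RPA1 read 760.3 and 859, then 747 and 752 (log2 change -0.11, adjusted p = 0.504), and RPA3 845 and 1062, then 1087 and 1229 (log2 change 0.28, adjusted p = 0.174). Without control array 2 the change of RPA3 was 0.44 (adjusted p = 0.0431) and that of RPA2 -0.34 (0.0706). RPA2 also lost its call without either labelled array (up to 0.183), with a constant of 1 (0.0501) and with no brightness filter (0.0623), and FEN1 without labelled array 1 (0.0693).

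Genes of deoxynucleotide supply moved in both directions, with a median log2 change of 0.01 over 4. TYMS, thymidylate synthase, fell from 278 and 299 to 195 and 204 (log2 change -0.50, SE 0.09, limma adjusted p = 0.00974). RRM2, the small subunit of ribonucleotide reductase, rose from 304 and 313 to 443 and 439.7 (log2 change 0.49, SE 0.08, adjusted p = 0.00833). Its large subunit RRM1 read 758 and 855, then 820.02 and 818, so the labelled pair lay between the control arrays (log2 change 0.02, 95% interval -0.19 to 0.24). TK1, thymidine kinase, read 108 and 122, then 106 and 123 (log2 change -0.01, 95% interval -0.25 to 0.23). The rise of RRM2 rests on 1 of its 2 probe sets. The other read 138 and 139.8 in the control and 148 and 142 on the labelled arrays, a log2 change of 0.06 (unadjusted p = 0.301), and as the probe set whose type is specific to one transcript it gave adjusted p = 0.732. With the mean of both RRM2 changed by 0.28 (adjusted p = 0.0284). RRM2 and TYMS lost their call without either labelled array (up to 0.0835 and 0.0915), and TYMS with the mean of its probe sets (log2 change -0.23, adjusted p = 0.0798).

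All 5 genes that restore chromatin and its marks behind the fork, or process histone mRNA, fell, against 6.60% of all genes tested. Their median log2 change was -0.48. UHRF1, which reads hemimethylated DNA and brings in DNMT1, read 195 and 189 in the control and 88.0 and 83.8 on the labelled arrays (log2 change -1.03, SE 0.08, limma adjusted p = 0.000339). DNMT1, the maintenance methyltransferase, fell from 187 and 165 to 126 and 111 (log2 change -0.51, SE 0.10, adjusted p = 0.0149). SLBP, which binds the stem-loop of histone mRNA, fell from 724 and 746 to 536 and 512 (log2 change -0.48, SE 0.09, adjusted p = 0.0104). The large and middle subunits of chromatin assembly factor 1 fell too: CHAF1A from 65.7 and 56.6 to 42.8 and 39.2 (log2 change -0.43, adjusted p = 0.0219) and CHAF1B from 41.9 on both control arrays to 31.3 and 28.8 (log2 change -0.33, adjusted p = 0.0369). Of the 5, UHRF1 alone kept its call without each single array, and CHAF1B lost it without any one (adjusted p up to 0.273). DNMT1 (up to 0.143), CHAF1A (up to 0.181) and SLBP (up to 0.115) lost theirs without either labelled array, and DNMT1 and CHAF1A also without control array 1. The calls of CHAF1A with the mean of its probe sets (0.063) and of CHAF1B with a constant of 64 (0.0766) were lost too. E2F1, a factor known to drive many of these promoters, was dim and not called, at 31.8 and 26.6 in the control and 27.5 and 26.0 on the labelled arrays (log2 change -0.08, 95% interval -0.30 to 0.14).

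The calls differed in how far they rested on single arrays and probe sets. Without one array the set had 8 to 17 genes called lower and 0 to 4 called higher. The count fell to 9 without labelled array 1 and to 8 without labelled array 2, when 1.43% and 1.01% of all genes were called lower. MCM2, MCM3, MCM5, MCM6, PCNA, POLD2 and UHRF1 were called lower in the reported fit and in every alternative that measured them, leave-one-out fits included: all 15 for the last 6, and 14 for MCM2, which has no probe set of the specific type. The control arrays differed from each other on the genes of the set: control array 1 was the higher in 11 of the 45. The median log2 difference, control array 1 minus control array 2, was -0.12, against -0.01 over all genes tested. The labelled arrays had a median difference of -0.004 on the set, with an absolute median of 0.07 against 0.17 for the control pair. The part of this difference in the results was not tested beyond the fits without each control array, in which 17 and 15 genes were called lower.

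Other probe sets of the same genes gave a partly separate reading. Above the brightness minimum, 20 genes had 26 further probe sets, of which 22 had the sign of the brightest. Of the 14 that belong to called genes 13 had the same sign, and the exception was a dim one of MCM4, at 24.4 and 27.6 in the control and 26.2 and 29.8 on the labelled arrays (log2 change 0.07, unadjusted p = 0.386), while the other two of MCM4 changed by -0.62 and -0.68. MCM5 had -0.74 on its second probe set and CDC6 0.31. The opposite signs of the genes not called were those of CDT1 (0.07), RPA1 (0.05) and TK1 (0.19), with no unadjusted p under 0.05. Of the 23 called genes 14 were read from a probe set of a type that is not specific to 1 transcript.

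**Figure D3:**
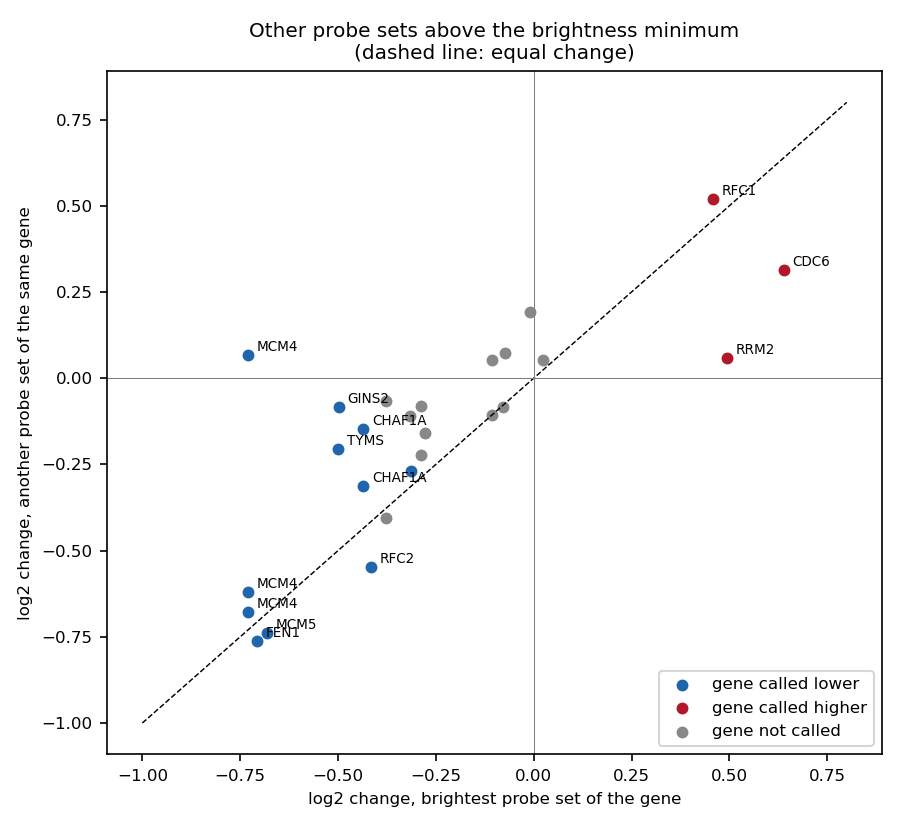
Log2 change on the brightest probe set of a gene (x axis) against that on each further probe set above the brightness minimum (y axis), with the dashed line at equal change and colour for the gene's call. Of the 26 points 22 had the sign of the brightest probe set. RRM2 (0.49 and 0.06), GINS2 (-0.50 and -0.08) and 1 probe set of MCM4 (-0.73 and 0.07) lie far from the line. CDC6 (0.64 and 0.31), TYMS (-0.50 and -0.21) and 1 probe set of CHAF1A (-0.43 and -0.15) also changed less on the further probe set. Among called genes MCM5, RFC1, RFC2 and FEN1 changed more on theirs.

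A list of 78 other replication genes, chosen by role but with earlier results of these data known, was read beside the set. Of the 72 tested 11 fell and 3 rose, with a median log2 change of -0.10, so 15.3% fell against 44.4% of the set and 6.60% of all genes. Whether the lists differ was not tested. The remaining licensing and firing genes gave 1 call in 12: ORC3, an ORC subunit, fell by 0.34 on the log2 scale (adjusted p = 0.0443), while CDC7, the kinase that fires origins, had a log2 change of -0.31 (adjusted p = 0.0888) and MCMBP, which binds free MCM proteins, -0.25 (0.124). Of 18 further fork genes 1 fell (5.56%) and 1 rose (5.56%), against 6.60% and 9.41% of all genes tested. POLE3, an accessory subunit of polymerase epsilon, fell from 408 and 449 to 308 and 279 (log2 change -0.52, adjusted p = 0.0116). PCLAF, which binds PCNA, rose from 4836 and 5177 to 7156 and 6796 (log2 change 0.48, adjusted p = 0.0118), against the direction of PCNA. WDHD1, which links polymerase alpha to the helicase, had a log2 change of -0.31 (adjusted p = 0.0786).

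Of 17 further nucleotide genes 3 fell (17.6%), against 6.60% of all genes tested. All 3 act in pyrimidine synthesis: CTPS1 (log2 change -0.53, limma adjusted p = 0.00766), UMPS (-0.51, 0.0134) and CAD (-0.51, 0.0174). Other pyrimidine genes of the class were not called, among them DHODH (-0.32, 0.205), DTYMK (-0.19, 0.168) and CMPK1 (0.28, 0.0622). These are named after their values were seen. Of 10 further chromatin genes 3 fell (30%) and none rose. CDCA7, a partner of the remodeller HELLS, fell from 148 and 194 to 80.1 and 81.3 (log2 change -0.94, adjusted p = 0.00284), the histone acetyltransferase HAT1 by 0.50 (0.0105) and SUPT16H, a subunit of the histone chaperone FACT, by 0.35 (0.0391), on the log2 scale. Among 15 genes of the E2F family and S phase entry DTL, which directs the destruction of CDT1 at PCNA, fell from 187 and 229 to 90.1 and 86.4 (log2 change -1.10, adjusted p = 0.000788). CCNE2, cyclin E2, fell from 51.2 and 63.3 to 25.0 and 22.3 (log2 change -0.88, adjusted p = 0.00196), and E2F5, one of the repressive E2F factors, rose from 22.7 and 24.1 to 40.7 and 46.6 (log2 change 0.60, adjusted p = 0.00583). SKP2 (log2 change -0.53, adjusted p = 0.00681) and E2F7 (0.41, 0.0281) were the remaining calls of that class and are named after their values were seen.

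**Figure D4:**
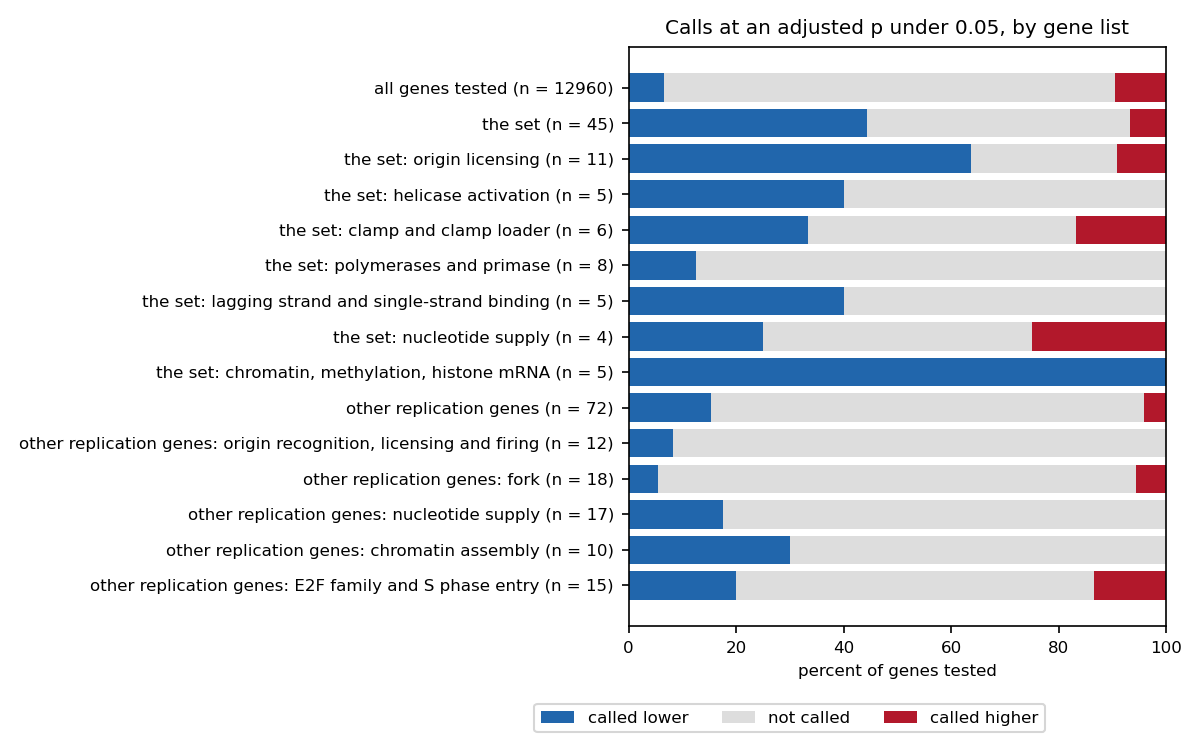
Percent of the genes tested (x axis) that were called lower, not called or called higher at an adjusted p under 0.05, for all 12960 genes, the 45 genes of the set, its classes by role, and the 72 other replication genes with their classes. The share called lower was 44.4% in the set, with all 5 chromatin genes and 7 of 11 licensing genes. It was 15.3% among the other replication genes and 6.60% among all genes tested.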

How the data were processed

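RNA of 4 MCF10A samples, 2 control and 2 labelled double knockdown, was hybridised to Affymetrix U133 Plus 2.0 arrays, labelled without amplification per the labels' protocols. The deposited values are linear intensities, 1 per probe set and array, as their range shows; the sources used here do not give how the authors summarised and normalized them. No further scaling was applied. Of 54675 probe sets 41091 named 1 gene, and 41037 of these were matched by gene identifier to RefSeq (GRCh38.p14) for current symbols. Each gene took its brightest probe set, and a gene was tested if its mean was at least 14.6, the median over probe sets. Values were log2(intensity + 16), compared with limma 3.58.1 in R 4.3.3 (lmFit, eBayes, two-sided, no covariate), and called at a Benjamini-Hochberg adjusted p under 0.05 over the 12960 genes tested. Values of further probe sets come from a fit of all probe sets naming 1 gene, with unadjusted p. The number of arrays limits the precision.

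The genes, their classes, the list of other replication genes, the motifs and the alternatives were chosen with earlier results of these data known. The titles of the 4 samples give only the group, the cell line and a sample number, so no batch could be set against the groups. All genes of the set are accounted for. Of the other genes up to 3 a class with the smallest p were named, besides those said to be named after their values were seen. The promoters printed are those of the 3 largest falls and all rises. On simulated data with 12960 genes, 200 of them were changed. The test called 13.4% of changes of 0.5, 73.1% of changes of 1 and 93.9% of changes of 2 on the log2 scale. Of its calls 0% were unchanged genes. The simulation drew independent normal noise, and in the data 2074 genes were called. Its shares therefore do not measure error among the reported calls. Alternatives were 3 scalings, 2 other constants, 2 other brightness filters, 2 other choices of probe set, another variance prior, the replicate block and fits without each array.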

Additional observations from a re-analysis of the deposited data

How the results depend on the processing

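Specific probe sets measured 15 of the 23 called genes, and 3 of these lost their call. With them 12 genes of the set were called lower, 11 of them also in the reported fit, and 1 higher. Of the other replication genes 7 were then called lower. With no brightness filter 1 gene of the set was called higher. Without one array the ranges were 8 to 17 genes of the set lower, 0 to 4 higher, 465 to 2032 of all genes called, 3 to 11 other replication genes lower and 0 to 3 higher; the lowest counts came without a labelled double knockdown array. In these fits the lone array of a group is assumed to vary like the other group. Under all other alternatives 18 to 22 genes of the set were called lower. No called gene of the set reversed. A constant of 64 brought the log2 change to -0.23 for ORC6, 0.38 for CDC6, -0.32 for GINS2, -0.19 for GINS3, -0.25 for CHAF1A, -0.17 for CHAF1B and -0.84 for CBL, and the mean of probe sets to 0.28 for CBLB. Of the genes not called, CDT1 had 4.73e-05 and TK1 0.091 with the mean of probe sets, TK1 0.19 with specific probe sets, and GINS4 0.0021 with cyclic loess, as log2 changes; the cause was not tested. Without one array the log2 change ran from -0.11 to 0.088 for CDC45, -0.32 to 0.075 for GINS1, -0.037 to 0.031 for GINS4, -0.17 to 0.081 for POLA2, -0.16 to 0.061 for POLD1, -0.17 to 0.0031 for LIG1, -0.060 to 0.11 for RRM1, -0.10 to 0.084 for TK1 and -0.16 to 0.0062 for E2F1.

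Replicate numbers in the labels are only sample numbers. The deviations of control 1 and labelled double knockdown 1 from their group means correlated at r = 0.24 across 12960 genes, which are not independent. With the replicate block 22 genes of the set were called lower and 3 higher, and 2503 of all genes were called; RFC5 (adjusted p = 0.0291) and POLD3 (0.0485), not called without it, were called lower. Signal near background limits ORC1, GINS4, E2F1, POLA2, POLE and MCM10. The log2 change of POLE was -0.14 with a constant of 64 and -0.45 with a constant of 1.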
